A study of Homo sapiens with 6 samples.

Results

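The 57 genes described here encode the machinery that copies DNA and rebuilds chromatin behind the fork. They were listed by name, from origin licensing and the helicase through the polymerases and the clamp loader to replication-coupled chromatin assembly. The rule names genes and uses no measured value, but the genes were chosen with earlier results of these data known. The arrays named them alone on 101 of 54675 probe sets, and they make up 57 of the 19775 genes with a probe set of their own. Expression was measured on 6 Affymetrix human arrays from HT-29, which comes from a human colon adenocarcinoma. The cells were wild type HT-29 and its variants BR100 and BR200, each with 2 arrays. For each variant, the 3' IVT Express kit labelled 100 ng of total RNA for the first array and the One-Cycle kit labelled 3 ug for the second. BR100 and BR200 are the resistant variants: per the labels, cells were kept in rising bortezomib, a proteasome inhibitor, from 20 to 300 nM for 7 months, and clones were then picked by 2 separate limiting dilutions at 100 or 300 nM for 4 further months. They are called resistant here because they were selected in the drug. Every sample carries that same treatment text, wild type included. The dose at which BR200 was cloned is not given, nor is the presence of drug at harvest, and each resistant variant is represented by a single line derived by cloning. Whether a variant was cultured more than a single time for its arrays is not stated, so p-values measure only the spread between these arrays, which may be technical.

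Replication begins when the origin recognition complex, CDC6 and CDT1 load the ring-shaped MCM2-7 helicase onto DNA in G1, a step that geminin (GMNN) blocks once S phase has started. The DDK kinase then allows CDC45 and the GINS complex to join MCM2-7 into the active helicase, after which polymerase alpha-primase starts each strand and polymerases delta and epsilon extend it with the sliding clamp PCNA. Behind the fork, CAF-1 and ASF1 deposit histones and UHRF1 guides DNMT1 to copy DNA methylation. Many of these genes are known targets of E2F factors and are transcribed as cells approach S phase. In RNA from whole cultures, more cells in S phase and more RNA per cell cannot be told apart.

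Values are the authors' log2 expression, and a difference of 1 on that scale is 2-fold. A gene was tested where at least 2 of the 6 arrays reached 4, which left 10370 genes, and all 57 listed genes were among them. The test was limma's moderated test with a block for labelling kit, and "rose" or "fell" is used only where the p adjusted by Benjamini-Hochberg, over all genes tested, was under 0.05. Wild type arrays correlated with resistant arrays at r = 0.878 to 0.904 across genes, against r = 0.972 to 0.987 among the resistant arrays and 0.985 between the wild type arrays. The 3' minus 5' gap of the ACTB control, which reads RNA integrity and labelling, was 4.22 (Express) and 2.99 (One-Cycle) in wild type, 3.03 and 1.86 in BR100, and 3.24 and 1.76 in BR200. The same gap of GAPDH was 0.48 and 0.40 in wild type, 0.22 and 0.16 in BR100 and 0.20 and 0.18 in BR200. These gaps moved with the variants, and their part in the results was not tested. Of 9 colon epithelium markers 7 passed the filter, and the log2 levels of all 9 summed to between 99.99 and 100.64 in wild type, 90.52 and 91.12 in BR100 and 91.5 and 91.95 in BR200. CDX1 and CDX2 did not pass, and VIL1, CDH1, KRT20 and LGALS4 fell in both resistant variants. Of the fibroblast markers 1 of 7 passed, of the blood cell markers 2 of 6 (CD14 and LYZ) and of the endothelial markers 1 of 5.

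Nearly the whole replication machinery was higher in BR100 than in wild type. Of the 57 genes, 53 rose and 0 fell, while 36.7% of all genes tested rose and 31.8% fell in that comparison. Their median change was 2.42 (5.36-fold), against a median of 0.04 over all genes tested. At least 2-fold rises were seen for 46 of them (13.7% of all genes tested), at least 4-fold rises for 37 (3.23%) and at least 8-fold rises for 19 (1.0%). Among the 100 genes with the largest rises of the 10370, 19 were replication or chromatin assembly genes, and among the first 500 there were 40. The 4 that did not pass were ORC4, GINS4, POLE3 and RFC5.

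BR200 was compared with the same wild type arrays, so the counts of the resistant variants are not independent of each other. In BR200, 52 of the 57 rose and 0 fell, against 35.4% and 31.2% of all genes tested. The median change was 2.28 (4.87-fold), against 0.04 over all genes tested. Rises of at least 2-fold numbered 45 (13% of all genes tested), rises of at least 4-fold numbered 35 (3.26%), and rises of at least 8-fold numbered 16 (1.03%). ORC5 joined the 4 genes that had not passed in BR100. For 53 of the 57 genes all 4 resistant arrays read above both wild type arrays, which held for 32.2% of all genes tested. The 4 with overlapping arrays were ORC4, ORC5, POLE3 and RFC5.

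**Figure D1:**
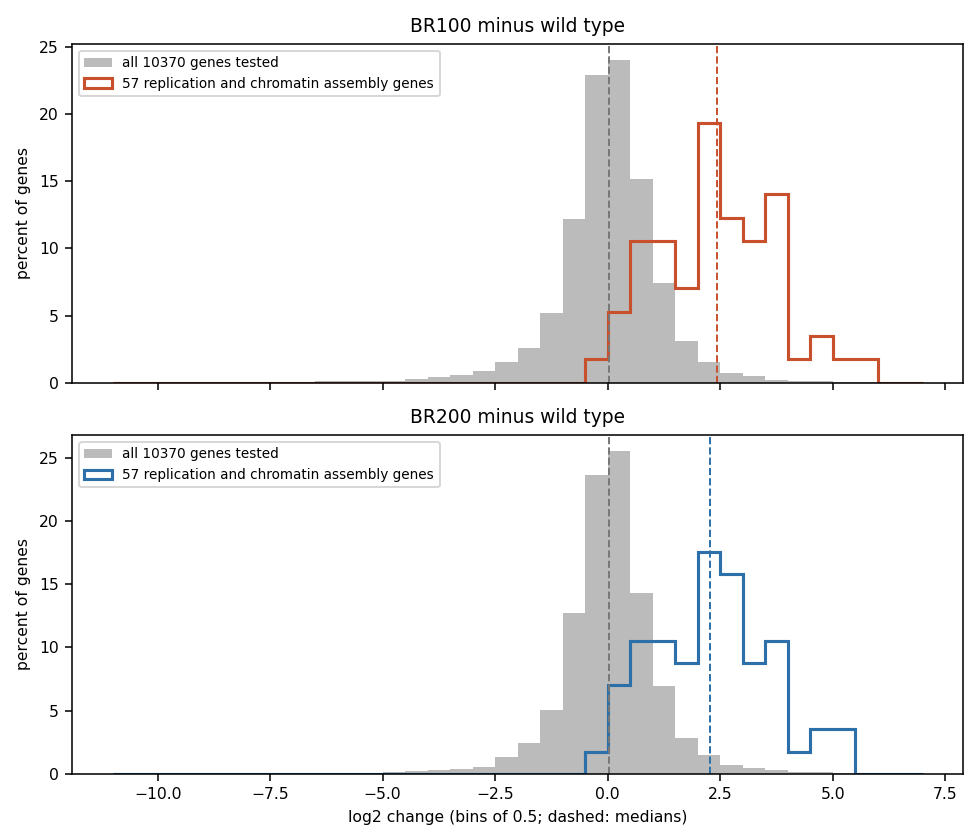
Distribution of log2 changes against wild type in bins of 0.5, as percent of genes, for all 10370 genes tested (grey) and for the 57 replication and chromatin assembly genes (outline), with BR100 above and BR200 below; dashed lines are medians. The replication genes centre on 2.42 in BR100 and 2.28 in BR200, while all genes centre on 0.04 in both.

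Of these genes, 52 read 4 or more on all 6 arrays (93.7% of all genes tested). On the probe sets used, ORC1, MCM10, GINS4 and CLSPN read under 4 on both wild type arrays, as did 1.79% of all genes tested. They thus entered the test only through their resistant arrays, and their fold changes depend on the background estimate. POLE2 read 3.95 and 4.05 in wild type and reached 4 there on the One-Cycle array alone. It too met the filter only with its resistant arrays, and its fold change carries the same limit. ORC1, MCM10 and CLSPN read 4 or more on all 4 resistant arrays (1.05% of all genes tested). With no filter on low values, 47 of the 57 rose in BR100 and 42 in BR200. Of all 19775 genes, 4911 and 4612 were then called in either direction, against 7102 and 6901 of 10370 with the filter. The calls lost in BR100 were those of ORC3, ORC5, CDC6, RFC4, ATAD5 and CHAF1A, which read above 4 on every array. Of the genes under 4 in wild type, only CLSPN lost a call, in BR200 (adjusted p = 0.0521 by the same test).

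Promoter sequences were read for the genes because the members moved together. RefSeq promoter windows of GRCh38.p14, 300 bases from 250 before to 50 after the start, were matched for 48 of the 57 genes. Each was searched on both strands for 4 spelled-out forms of the E2F site (TTTGGCGC, TTTCCCGC, TTTCGCGC and TTTGCCGC), which can overlap each other where they meet at the shared GCGC. At least 1 form stood in the windows of 24 of the 48 genes (50%), against 598 of the 8620 tested genes with a window (6.94%). The stretches below, of 30 bases each, show forms from genes of successive steps, with 1 form of each in capitals, written 5' to 3' on the strand of the gene. In the MCM2 stretch a further form, GCGCGAAA, overlaps the form in capitals and runs on into the lower case letters. ORC3 is included as a gene with a form and a small change.
ORC3, chr6:87590112-87590141, plus strand: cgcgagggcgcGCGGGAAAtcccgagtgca
CDC6, chr17:40287875-40287904, plus strand: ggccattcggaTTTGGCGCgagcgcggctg
CDT1, chr16:88803743-88803772, plus strand: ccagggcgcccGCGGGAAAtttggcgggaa
MCM2, chr3:127598402-127598431, plus strand: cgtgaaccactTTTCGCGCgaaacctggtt
MCM3, chr6:52284728-52284757, minus strand: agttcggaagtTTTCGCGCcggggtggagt
GINS1, chr20:25407667-25407696, plus strand: agctttgttcgGCGCCAAAgcgcggagcgg
GINS2, chr16:85688967-85688996, minus strand: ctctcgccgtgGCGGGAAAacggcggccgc
GINS3, chr16:58392455-58392484, plus strand: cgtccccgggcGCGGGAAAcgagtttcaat
POLA2, chr11:65261898-65261927, plus strand: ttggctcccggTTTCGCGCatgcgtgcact
POLE2, chr14:49688201-49688230, minus strand: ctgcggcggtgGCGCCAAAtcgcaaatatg
LIG1, chr19:48170440-48170469, minus strand: acttcacccctTTTCCCGCcctcctcccat
DNMT1, chr19:10194937-10194966, minus strand: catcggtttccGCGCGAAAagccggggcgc

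The 18 genes that have a form and only a single RefSeq window held 23 forms, of which 13 lay before the start, 5 across it and 5 after it. MCM6 held 4 of them in overlapping pairs, and MCM10, whose fitted change was the largest, held none. The 150 bases just before the start of each are shown to set these side by side, with the forms of MCM6 in capitals; the capitals do not include the first form of MCM6, which begins before this stretch.
MCM6, chr2:135876444-135876593, minus strand: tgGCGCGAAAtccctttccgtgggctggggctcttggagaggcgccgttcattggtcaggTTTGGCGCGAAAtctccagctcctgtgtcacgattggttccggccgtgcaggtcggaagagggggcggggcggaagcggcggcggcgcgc
MCM10, chr10:13161408-13161557, plus strand: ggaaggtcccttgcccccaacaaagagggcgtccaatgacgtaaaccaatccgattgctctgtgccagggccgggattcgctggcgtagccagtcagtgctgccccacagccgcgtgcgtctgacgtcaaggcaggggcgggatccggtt

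The median BR100 change was 3.02 for the 24 genes with a form and 1.91 for the 24 matched genes without one, and in BR200 these medians were 2.84 and 1.90. Among tested genes outside the list, 574 had a form, and their median changes were 0.17 in BR100 and 0.13 in BR200. The letters CCAAT, on either strand, stood in 29 of the 48 genes (60.4%) and in 43.9% of tested genes with a window. The letters TTTGAA stood in 3 (6.25%), namely ASF1B, DBF4 and POLE3, and in 13.9% of tested genes with a window. A match describes the letters in these windows and is not a measured binding site, and a window without a match says nothing about any factor.

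The origin recognition complex, which marks where replication starts, had the smallest median change of the 15 groups: 0.76 in BR100, where 5 of 6 subunits rose, and 0.77 in BR200, where 4 of 6 rose. ORC1, the subunit whose level is known to vary through the cell cycle, was the exception. It read 2.93 and 3.68 in wild type, 7.54 and 8.01 in BR100 and 7.21 and 7.76 in BR200, with the Express array first in each pair here and throughout. All 4 resistant arrays were thus well above wild type, where the gene was near background. The change was 4.47 in BR100 (22.2-fold, SE 0.0950, adjusted p = 7.04e-05) and 4.18 in BR200 (18.1-fold, adjusted p = 9.52e-05). ORC4, a core ATPase subunit, read 10.89 and 10.73, then 10.89 and 10.93, then 10.83 and 10.81, so its arrays overlapped. Its changes were 0.10 (SE 0.0817, adjusted p = 0.325) and 0.01 (adjusted p = 0.924) on this probe set. Its other probe set, 203352_at, rose by 0.50 in BR100 (adjusted p = 0.00743 over all probe sets) and stood at 0.24 in BR200 (adjusted p = 0.0613). When suffixed probe sets were left out, ORC4 was called in both (0.50, adjusted p = 0.00508, and 0.24, adjusted p = 0.0496), and with its probe sets averaged in BR100 (0.30, adjusted p = 0.0148).

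ORC5 read 9.65 and 9.94 in wild type, 10.17 and 10.31 in BR100 and 9.89 and 9.95 in BR200. BR100 lay above both wild type arrays, and BR200 overlapped them. ORC5 rose by 0.45 in BR100 (adjusted p = 0.0097) and stood at 0.12 in BR200 (adjusted p = 0.254). The BR100 call was lost without its Express array (0.43, adjusted p = 0.0671) and without its One-Cycle array (0.46, adjusted p = 0.0597). A further tested probe set of ORC5, 211212_s_at, rose by 0.91 in BR100 (adjusted p = 0.00704 over all probe sets) and stood at 0.32 in BR200 (adjusted p = 0.12). Its BR200 minus BR100 difference was -0.58 (adjusted p = 0.0957). ORC6, which completes the complex, rose by 0.87 and 1.05, and ORC3 rose by 0.80 and 0.98. The ORC3 call in BR100 did not hold without the One-Cycle array of BR100 (0.68, adjusted p = 0.0522). ORC2 rose by 0.73 and 0.57 on the probe set used, and its other probe set went the opposite way, as described with the probe sets.

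All 3 licensing genes rose in both resistant variants, with medians of 1.76 and 1.69. CDT1, which brings MCM2-7 to the origin, changed most: it read 6.82 and 7.15 in wild type, 10.21 and 10.40 in BR100 and 10.07 and 10.39 in BR200. These levels did not overlap, and the rises were 3.32 (10.0-fold, SE 0.0748, adjusted p = 7.56e-05) and 3.25 (adjusted p = 9.52e-05). GMNN, the inhibitor of CDT1, rose by 1.76 and 1.69. CDC6, the ATPase that loads MCM2-7 together with the origin recognition complex, changed least of the 3. It read 8.56 and 8.79, then 9.43 and 10.27, then 9.24 and 9.96, so resistant arrays were higher and the One-Cycle arrays higher still. CDC6 rose by 1.17 (SE 0.167, adjusted p = 0.00386) and 0.92 (adjusted p = 0.00866), and the BR200 call was lost without the One-Cycle array of BR200 (0.84, adjusted p = 0.0666).

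Each of the 6 subunits of the MCM2-7 helicase rose in both resistant variants, with medians of 3.02 (8.09-fold) in BR100 and 2.88 (7.39-fold) in BR200. MCM5, one of the ATPase subunits of the ring, read 5.00 and 5.03 in wild type, 9.50 and 9.66 in BR100 and 9.60 and 9.75 in BR200. The gap between wild type and the resistant arrays was far larger than the spread within a variant. MCM5 rose by 4.56 (23.6-fold, SE 0.0718, adjusted p = 6.99e-05) and 4.66 (25.2-fold, adjusted p = 7.58e-05). MCM7 changed least of the ring, reading 9.30 and 9.51, then 11.52 and 11.60, then 11.63 and 11.56. It still separated fully from wild type, with rises of 2.16 (4.46-fold, SE 0.0921, adjusted p = 0.000191) and 2.20. Between these, MCM2 rose by 3.77 and 3.86, MCM3 by 3.05 and 2.93, MCM6 by 2.99 and 2.84, and MCM4 by 2.70 and 2.61. The rises of the ring thus ran from 4.46-fold to 23.6-fold in BR100.

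MCM10, which helps to activate the helicase at the origin and lies at chr10:13161558-13211110, had the largest fitted change of the 57 genes on the probe set used. It read 3.36 and 3.62 in wild type, 8.95 and 9.23 in BR100 and 8.92 and 9.0 in BR200. Wild type was near background, so the fold depends on the background estimate, and no array overlapped. The fitted rises were 5.6 (48.6-fold, SE 0.0836, adjusted p = 6.61e-05) and 5.47 (44.4-fold, adjusted p = 7.58e-05). Its other probe sets rose by 3.98 and 3.51 in BR100, less than POLE2 at 5.27. In wild type the probe set used had a mean of 3.49, below those others at 3.59 and 4.34. It was thus the brightest on average only through its resistant arrays. MCM8, a relative of the ring subunits that works in homologous recombination, rose by 2.01 and 1.89. RECQL4, a helicase with a role in initiation, read 5.76 and 5.42 in wild type, 8.11 and 7.28 in BR100 and 7.55 and 7.06 in BR200. It was higher on every resistant array and higher with Express than with One-Cycle, and it rose by 2.10 and 1.72 (SE 0.137 each, adjusted p = 0.00045 and 0.000815).

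CDC45 and the 4 GINS subunits, which turn the MCM ring into the moving helicase, had the highest median of any group: 3.86 (14.5-fold) in BR100 and 3.73 (13.3-fold) in BR200. GINS2 read 5.59 and 5.73 in wild type, 10.46 and 10.51 in BR100 and 10.42 on both BR200 arrays. Levels within a variant differed by little, and wild type lay far below. GINS2 rose by 4.83 (28.4-fold, SE 0.0716, adjusted p = 6.61e-05) and 4.76 (27.1-fold). CDC45 rose by 3.90 and 3.73, GINS3 by 3.86 and 3.96, and GINS1 by 3.13 and 3.12. GINS4 was the member of this group that did not pass: it read 2.24 on both wild type arrays, 2.39 and 4.82 in BR100 and 2.36 and 4.67 in BR200. Only the One-Cycle arrays of the resistant variants lay above background. Its changes of 1.37 (SE 0.662, adjusted p = 0.132) and 1.27 (adjusted p = 0.157) differed by kit, and without the Express array of wild type they were 2.55 (adjusted p = 0.00459) and 2.46 (adjusted p = 0.0057).

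The DDK kinase showed its catalytic and regulatory subunits apart. CDC7, the kinase, read 5.00 and 4.85 in wild type, 8.66 and 8.72 in BR100 and 8.62 and 8.73 in BR200. The resistant arrays lay close together and far above wild type, with rises of 3.76 (13.6-fold, SE 0.0915, adjusted p = 7.93e-05) and 3.75. DBF4, its activating subunit, read 11.17 and 10.91, then 11.71 and 11.48, then 11.36 and 11.20. DBF4 rose by 0.56 in BR100 (1.47-fold, SE 0.0682, adjusted p = 0.00249) and by 0.24 in BR200 (1.18-fold, adjusted p = 0.035). That BR200 call was lost on leaving out any of the 6 arrays, with values of 0.20 to 0.28 and adjusted p = 0.0681 to 0.196.

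**Figure D2:**
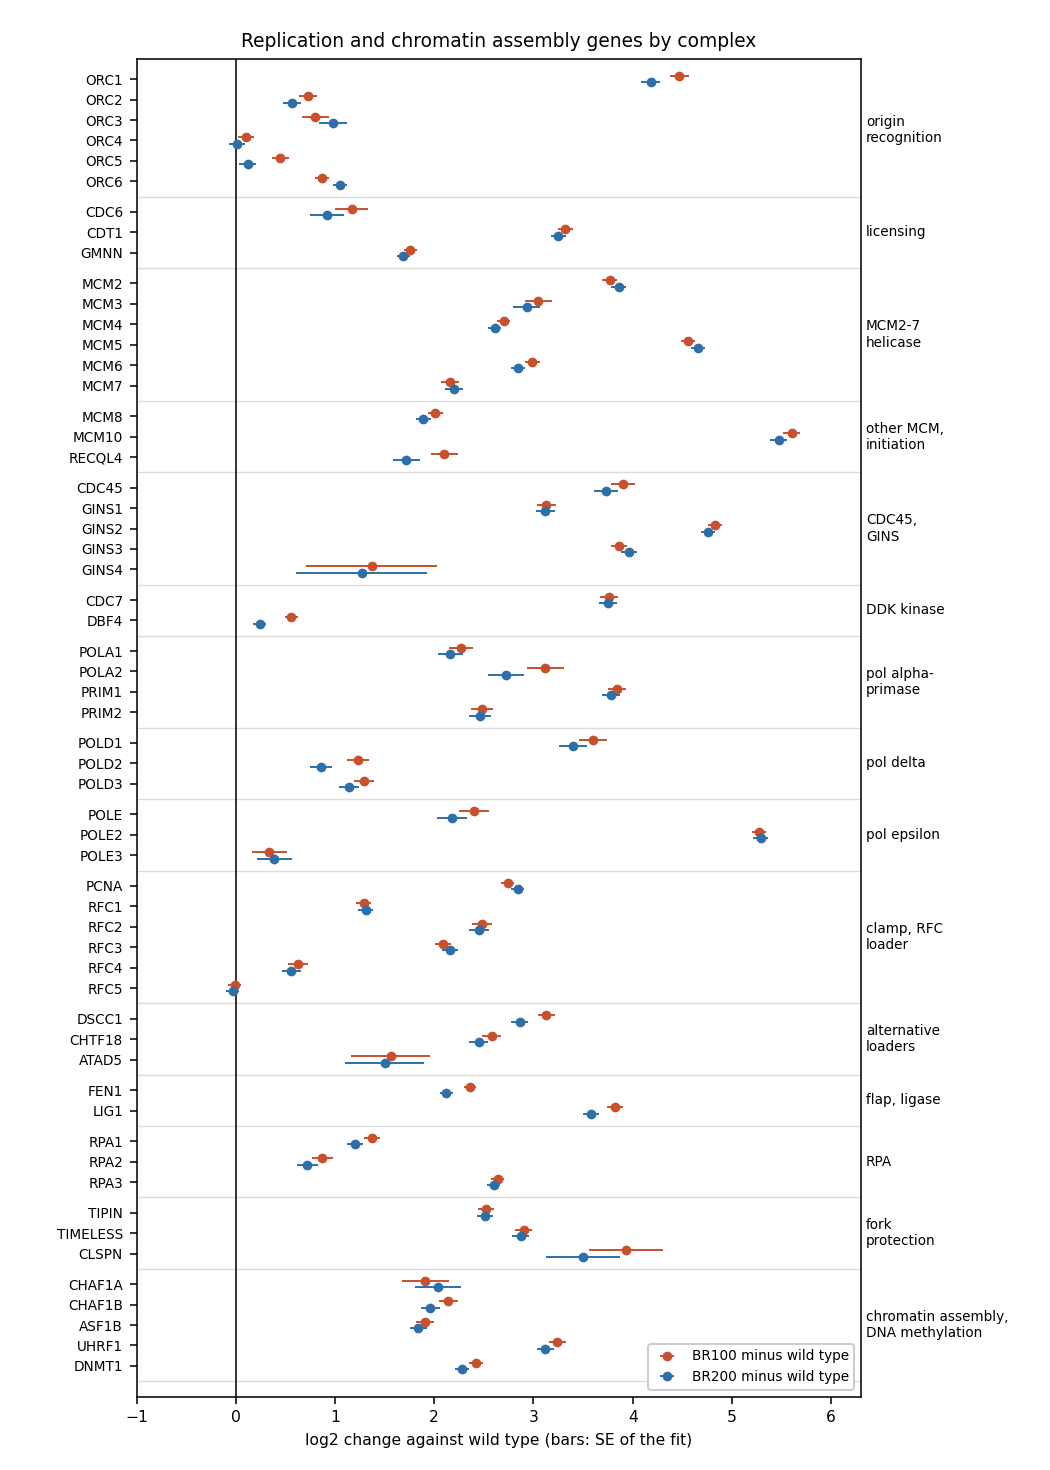
Log2 change of each of the 57 genes against wild type in BR100 (orange) and BR200 (blue), grouped by complex, with bars for limma's SE. Most points lie between 1 and 5, ORC4 and RFC5 lie near 0, and GINS4 has the widest bars.

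All 4 subunits of polymerase alpha-primase, which lays the RNA-DNA primers, rose in both variants, with medians of 2.80 and 2.59. PRIM1, the catalytic primase subunit, read 6.17 and 5.99 in wild type, 9.88 and 9.97 in BR100 and 9.85 and 9.88 in BR200. It rose by 3.84 (14.3-fold, SE 0.0935, adjusted p = 7.93e-05) and 3.78. The smallest rise was that of POLA1, the catalytic polymerase subunit, which read 6.25 and 6.33, then 8.35 and 8.78, then 8.20 and 8.70. Its arrays did not overlap wild type, and it rose by 2.27 (4.83-fold, SE 0.125, adjusted p = 0.000311) and 2.16. PRIM2 rose by 2.48 and 2.46, and POLA2, the regulatory subunit, by 3.12 and 2.72.

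The catalytic subunit of polymerase delta, the lagging strand enzyme, rose more than its accessory subunits. POLD1 read 5.49 and 5.30 in wild type, 8.84 and 9.15 in BR100 and 8.78 and 8.82 in BR200, a rise of 3.60 (12.1-fold, SE 0.138, adjusted p = 0.000162) and 3.40. POLD2 read 9.38 and 9.79, then 10.45 and 11.17, then 10.07 and 10.83. Every resistant array of POLD2 exceeded wild type, and One-Cycle exceeded Express in each variant. POLD2 rose by 1.23 and 0.86 (SE 0.111 each, adjusted p = 0.00104 and 0.00305), and POLD3 rose by 1.29 and 1.14. The difference between subunits was not tested, since probe sets of different genes respond to RNA differently.

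Polymerase epsilon, which copies the leading strand, held both one of the largest and one of the smallest changes. POLE2, its regulatory subunit at chr14:49643555-49688214, read 3.95 and 4.05 in wild type, 9.24 and 9.31 in BR100 and 9.19 and 9.40 in BR200. Wild type lay at the filter value and the resistant arrays far above it, so the fold depends on the background estimate. POLE2 rose by 5.27 (38.6-fold, SE 0.0733, adjusted p = 6.61e-05) and 5.29 (39.2-fold, adjusted p = 7.58e-05). POLE, the catalytic subunit, rose by 2.40 and 2.18. POLE3, a histone-fold subunit shared with a chromatin remodeller, read 10.67 and 11.16, then 10.72 and 11.79, then 10.78 and 11.83. Its arrays overlapped, with kit moving it by -0.87 (Express minus One-Cycle), and its changes were 0.34 (SE 0.172, adjusted p = 0.144) and 0.39 (adjusted p = 0.108). Without the Express array of wild type they were 0.63 (adjusted p = 0.0136) and 0.68 (adjusted p = 0.013).

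PCNA, the sliding clamp, read 10.89 and 10.90 in wild type, 13.63 and 13.64 in BR100 and 13.70 and 13.77 in BR200. Kits gave nearly the same level within each variant. PCNA rose by 2.74 (6.70-fold, SE 0.0663, adjusted p = 7.93e-05) and 2.84 (7.18-fold). Of the RFC subunits that load it, RFC2 rose by 2.48 and 2.45, RFC3 by 2.09 and 2.16, RFC1 by 1.29 and 1.31, and RFC4 by 0.63 and 0.56. The RFC4 call in BR200 was lost without the One-Cycle array of wild type (0.49, adjusted p = 0.0661) and without the Express array of BR200 (0.48, adjusted p = 0.065). RFC5 was the gene with the lowest value of the 57: its probe set with the highest level read 11.59 and 10.72 in wild type, 11.63 and 10.67 in BR100 and 11.59 and 10.66 in BR200. These levels followed kit, and the changes were -0.01 (adjusted p = 0.935) and -0.03 (adjusted p = 0.698). Its other probe sets rose, as described with the probe sets.

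The alternative clamp loaders all rose, with medians of 2.58 and 2.45. DSCC1, which serves cohesion at the fork, read 8.08 and 8.05 in wild type, 11.10 and 11.30 in BR100 and 10.90 and 10.96 in BR200, and rose by 3.13 (8.75-fold, SE 0.0859, adjusted p = 9.47e-05) and 2.86. CHTF18, its partner in the same loader, rose by 2.58 and 2.45. ATAD5, which unloads PCNA, read 4.66 and 4.83, then 7.00 and 5.62, then 6.75 and 5.74. All resistant arrays exceeded wild type, by more with Express than with One-Cycle. ATAD5 rose by 1.56 (SE 0.396, adjusted p = 0.0238) and 1.50 (adjusted p = 0.0278). The BR100 call was lost without the Express array of BR100 (1.08, adjusted p = 0.127) and without either BR200 array (adjusted p = 0.0509 each), and the BR200 call without either array of BR200 (1.29 and 1.70, adjusted p = 0.153 and 0.0905).

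FEN1 and LIG1, which trim and seal Okazaki fragments, both rose. LIG1 read 4.86 and 4.46 in wild type, 8.57 and 8.38 in BR100 and 8.41 and 8.06 in BR200, a rise of 3.82 (14.1-fold, SE 0.0820, adjusted p = 7.12e-05) and 3.58 (11.9-fold). FEN1 read 10.39 and 9.95, then 12.75 and 12.30, then 12.49 and 12.08, a rise of 2.36 (5.13-fold, SE 0.0640, adjusted p = 9.24e-05) and 2.12. In each gene the Express array read higher than One-Cycle in all 3 variants, and wild type did not overlap the resistant arrays.

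Replication protein A, which coats single-stranded DNA, rose in all 3 subunits, with medians of 1.37 and 1.20. RPA3, the smallest subunit, read 9.78 and 9.38 in wild type, 12.41 and 12.04 in BR100 and 12.36 and 12.01 in BR200, and rose by 2.64 (6.24-fold, SE 0.0648, adjusted p = 7.96e-05) and 2.60. RPA2 read 8.31 and 8.52, then 9.34 and 9.23, then 9.17 and 9.09, and rose by 0.87 (1.83-fold, SE 0.105, adjusted p = 0.00238) and 0.72 (adjusted p = 0.0046). RPA1, the largest subunit, rose by 1.37 and 1.20. No resistant array of the 3 overlapped wild type.

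The fork protection genes also rose together, with medians of 2.90 and 2.87. CLSPN encodes claspin, which carries the checkpoint signal to CHK1. It read 2.53 and 3.14 in wild type, 7.11 and 6.41 in BR100 and 6.68 and 5.97 in BR200. On this probe set, 243840_at, wild type was near background, and in the resistant variants Express read above One-Cycle. On it CLSPN rose by 3.93 (15.2-fold, SE 0.371, adjusted p = 0.00117) and 3.5 (11.3-fold, adjusted p = 0.00175). It was the brightest on average only through its resistant arrays. The other tested probe set of CLSPN, 219621_at, read 4.69 on both wild type arrays, 4.78 and 5.04 in BR100 and 4.78 and 5.21 in BR200. Its changes of 0.21 and 0.30 did not pass (adjusted p = 0.216 and 0.114 over all probe sets), so the rise of CLSPN depends on its probe set. TIPIN and TIMELESS form a complex that steadies the fork. TIPIN read 8.21 and 7.67, then 10.69 and 10.22, then 10.77 and 10.12, and rose by 2.52 (SE 0.0773, adjusted p = 0.000114) and 2.51. TIMELESS rose by 2.90 and 2.87.

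The 5 genes of chromatin assembly and maintenance methylation all rose, with medians of 2.14 and 2.04. UHRF1, which reads hemimethylated DNA, read 8.59 and 8.30 in wild type, 11.70 and 11.66 in BR100 and 11.62 and 11.50 in BR200. The arrays of the variants did not overlap, and UHRF1 rose by 3.24 (9.42-fold, SE 0.0877, adjusted p = 9.24e-05) and 3.12 (8.67-fold). DNMT1, the maintenance methyltransferase, rose by 2.42 and 2.28. CHAF1A and CHAF1B, the large and middle subunits of CAF-1, rose by 1.91 and 2.04 and by 2.14 and 1.96. ASF1B, the histone chaperone that hands histones to CAF-1, had the smallest BR200 rise of the 5 and read 5.79 and 6.29, then 7.68 and 8.22, then 7.52 and 8.25. ASF1B rose by 1.91 (3.76-fold, SE 0.0890, adjusted p = 0.000224) and 1.84.

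**Figure D3:**
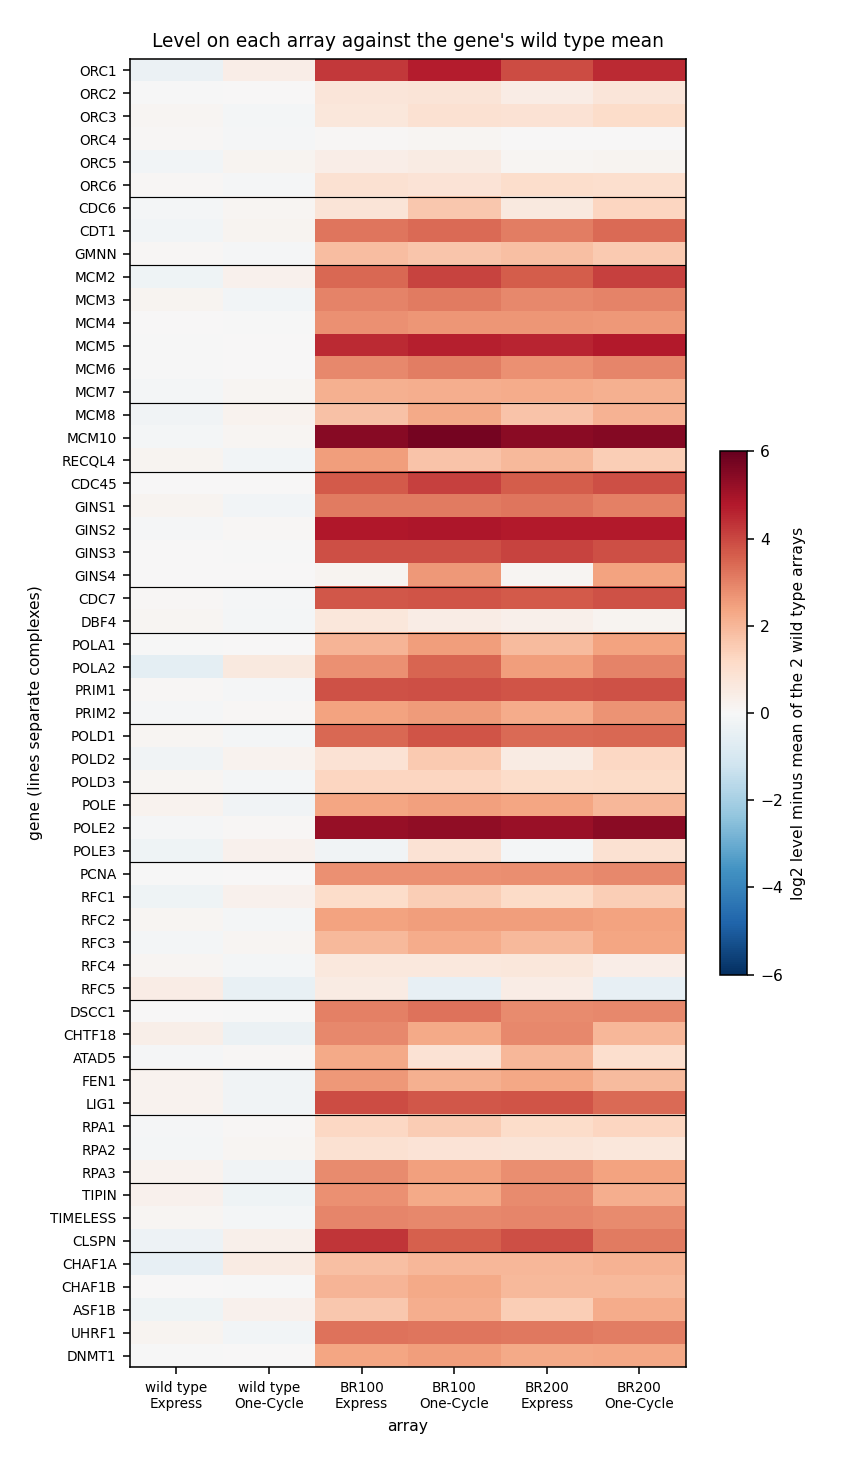
Log2 level of each of the 57 genes on each of the 6 arrays minus the mean of its wild type arrays, with lines between complexes. Columns of BR100 and BR200 are red for most genes on both kits; GINS4 is red on the One-Cycle arrays alone, and RFC5 follows kit.

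BR200 was then set against BR100 directly. By limma, 0 of the 57 genes passed in either direction, while 6.39% of all genes tested were higher and 4.23% lower in BR200. At an unadjusted p under 0.05 there were 8 of 57 (31.4% of all genes tested): ORC1, ORC5, RECQL4, DBF4, POLD2, DSCC1, FEN1 and LIG1. All 8 values were below 0, from -0.39 for RECQL4 to -0.24 for FEN1 and LIG1. The smallest adjusted p was 0.0597, for DBF4 at -0.32. Differences ran from -0.43 for CLSPN to 0.18 for ORC3 and ORC6, with a median of -0.09 against -0.01 over all genes tested. They were below 0 for 45 of 57 genes, as for 52.6% of all genes tested. Intervals of the difference at 95% confidence had a median half-width of 0.24, and 54 of 57 lay within a change of 1 either way. The widest, that of GINS4, ran from -1.88 to 1.69. When any BR100 or BR200 array was left out, 0 of all 10370 genes passed in this comparison, so such repeats bear on no single call. With variance moderation by trend and robust, 5 of the 57 were lower in BR200: ORC5, DBF4, POLD2, DSCC1 and FEN1. That setting called 2254 of all 10370 genes in either direction, against 1102 in the main fit.

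Within each kit the differences ran the same way for nearly all members. In BR100, 56 of 57 genes were above wild type on Express arrays and 56 of 57 on One-Cycle arrays, with median changes of 2.36 and 2.55; of all 10370 genes tested, 5312 and 5433 were above, with medians of 0.03 and 0.04. In BR200 these were 55 and 56, with medians of 2.33 and 2.37, against 5398 and 5295 of all genes tested, with medians of 0.04 and 0.02. Kit itself moved some members: 8 of the 57 read higher and 11 lower with Express at adjusted p under 0.05, against 22.4% and 11.7% of all genes tested. The called differences ran from -0.87 for POLE3 to 0.92 for RFC5 (Express minus One-Cycle), and GINS4 stood at -1.58 without passing (adjusted p = 0.0878). The size of the change depended most on kit for GINS4 (0.15 with Express and 2.58 with One-Cycle in BR100), ATAD5 (2.34 and 0.79) and CLSPN (4.58 and 3.27).

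Testing each probe set on its own gave further readings of the same genes. Of the 101 probe sets, 83 passed the filter. In BR100 76 of them rose and 1 fell, against 32.0% and 30.9% of all 19055 probe sets tested. In BR200 72 rose and 1 fell, against 29.7% and 29.8%. In the direct comparison 0 were higher and 1 was lower in BR200 (3.96% and 1.74% of all), which was 203210_s_at of RFC5. For 21 genes more than 1 probe set was tested, and their BR100 changes differed by a median of 0.67.

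The spread exceeded 1 for 6 genes. They were ORC2, MCM4, MCM5, MCM10, RFC5 and CLSPN. For RFC5, 203209_at read 8.54 and 8.52 in wild type, 11.18 and 11.50 in BR100 and 10.87 and 11.10 in BR200. With 203210_s_at, RFC5 read 5.48 and 6.18, then 8.99 and 9.72, then 8.35 and 9.12. These probe sets rose by 2.81 and 3.52 in BR100 and by 2.45 and 2.90 in BR200, while 213734_at, which has the highest level and stood for the gene, did not change by the test. For ORC2, 204853_at rose by 0.73 and 0.57, whereas 235423_at read 8.38 and 7.82, then 7.66 and 7.42, then 7.95 and 7.31, and fell by 0.56 and 0.46. The direction of ORC2 therefore depends on its probe set. CLSPN was at 3.93 on 243840_at and at 0.21 on 219621_at in BR100 (adjusted p = 0.216 over all probe sets). MCM10 ranged from 3.51 to 5.6, MCM4 from 2.70 to 4.22 and MCM5 from 3.55 to 4.56, so their probe sets differed in size and not in direction.

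**Figure D4:**
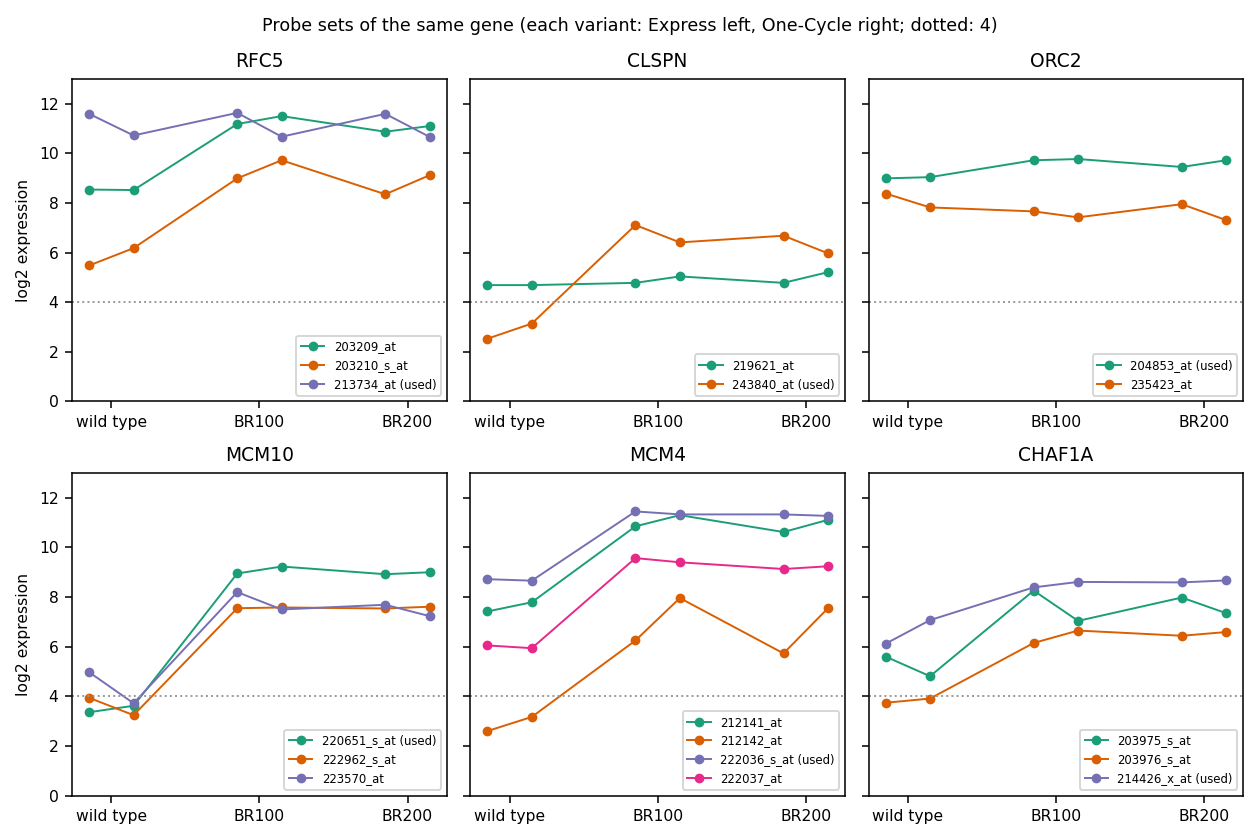
Log2 level on the 6 arrays of every tested probe set of 6 genes; in each variant the left point is Express and the right point One-Cycle, and the dotted line marks 4. The probe sets of RFC5, CLSPN and ORC2 disagree, and those of MCM10, MCM4 and CHAF1A all lie higher in the resistant variants.

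The genes are spread over 21 chromosomes, with at most 6 on any of them. Each was set beside the 10 nearest tested genes on either side by RefSeq position in GRCh38.p14. In BR100, 56 of 57 lay above the median of their neighbours, and these medians ran from -1.86 to 0.69 with a median of 0.03. POLE2 had the highest neighbours, of which 16 of 20 rose. RFC4, at chr3:186789900-186806482, had the lowest, of which 16 of 20 fell, and RFC4 itself rose by 0.63.

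Lists of genes that work beside these had smaller median changes. Of 17 other replication factors tested (18 listed), 13 rose and 3 fell in BR100, with a median of 1.33, and 13 rose and 3 fell in BR200, with a median of 1.20. Among all genes tested, 36.7% rose and 31.8% fell in BR100, and 35.4% rose and 31.2% fell in BR200. RNASEH2A, the catalytic subunit of RNase H2, rose by 4.74 and 4.78, from 5.61 and 4.85 in wild type to 10.26 and 9.69 in BR100 and 10.24 and 9.79 in BR200. WDHD1, which ties polymerase alpha to the helicase, rose by 4.04 and 4.11. It read 3.68 and 3.73 in wild type, under the filter value, and so was tested only because of its resistant arrays. With wild type this near background, the size of the WDHD1 rise is uncertain. DTL rose by 3.00 and 3.06, and PCLAF, which binds PCNA, by 2.97 and 3.03. The 3 that fell were POLD4 (-0.77 and -0.71), RNASEH2B (-0.48 and -0.68) and TOP1 (-0.23 and -0.47). On leaving out each array in turn, 1 or 2 of this list fell in BR100, the count being 1 without the One-Cycle array of wild type or either array of BR100. MTBP, a partner of TICRR in origin firing, was higher in BR200 than in BR100 by 1.41 (adjusted p = 0.00525), and POLE4 was lower by 0.51 (adjusted p = 0.0258). Without the kit block, with averaged probe sets or with no filter, 0 genes of this list were called in that comparison.

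All 12 tested histone chaperones and replication-linked chromatin factors (13 listed) rose in BR100, with a median of 1.02, and 10 of 12 rose in BR200, with a median of 0.94. The shares of all genes tested that rose were 36.7% and 35.4%. TONSL, at 3.63 and 3.83 in wild type, passed the filter only through its resistant arrays, which read 4.15 to 4.25. With the filter at 6, 11 genes of this list were tested, of which 11 rose in BR100 and 9 in BR200. HELLS, a remodeller needed for DNA methylation, rose by 3.55 and 3.43, and the histone chaperone NASP rose by 2.19 and 2.27. RBBP7 rose by 1.90 and 1.70, and HAT1, which acetylates new histone H4, by 1.87 and 1.73. SSRP1, of the FACT complex, was lower in BR200 than in BR100 by 0.36 (adjusted p = 0.0477). That call depended on the processing. In this list 0 genes were lower in BR200 without the kit block, with averaged probe sets, with no filter or with quantile normalization. With only the probe sets that carry no _s, _x or _a suffix, 6 rose in BR100, and NAP1L1 and RBBP4 fell by 0.39 and 0.75. Among the 5 genes that deposit histone H3.3 outside replication, 0 rose and 0 fell in BR200 (median 0.04), against 35.4% and 31.2% of all genes tested. In BR100, where 36.7% of all genes tested rose, 3 of the 5 rose (median 0.35), namely DAXX at 0.57, ATRX at 0.36 and CABIN1 at 0.35. These rises were 1 without the Express array of BR100 and 0 without its One-Cycle array. Of 11 polymerases of repair and lesion bypass, 5 rose and 1 fell in BR100 (median 0.04), and 3 rose and 1 fell in BR200 (median 0.07), where 36.7% and 35.4% of all genes tested rose. The risers in BR100 were POLQ, POLG, POLI, REV3L and MAD2L2, and those in BR200 POLQ, POLI and MAD2L2; 2 rose in BR100 without the One-Cycle array of wild type or of BR100. With suffixed probe sets left out, REV3L fell by 1.1 in BR100 (adjusted p = 0.00176) in place of its rise of 0.39, and REV1 fell by 0.43 (adjusted p = 0.00771). POLQ, of end joining, rose by 1.82 and 2.04, and POLM fell by 2.10 and 1.96 to near background.

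Late cell cycle markers, which peak in G2 and mitosis, were also higher in BR100. All 8 rose there (median 0.85; 5 without the One-Cycle array of BR100) and 5 of 8 in BR200 (median 0.63), where the replication genes had medians of 2.42 and 2.28. Of all genes tested, 36.7% rose in BR100 and 35.4% in BR200. MKI67, the proliferation marker, read 10.58 and 10.32 in wild type, 11.86 and 11.90 in BR100 and 11.10 and 11.26 in BR200, and rose by 1.43 and 0.73. CCNA2, the cyclin of S and G2 phases, rose by 1.35 and 1.08. MKI67 and AURKA were lower in BR200 than in BR100, by 0.70 (adjusted p = 0.0438) and 0.39 (adjusted p = 0.0396). These lists were described by counts and medians, and no difference between lists was tested.

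**Figure D5:**
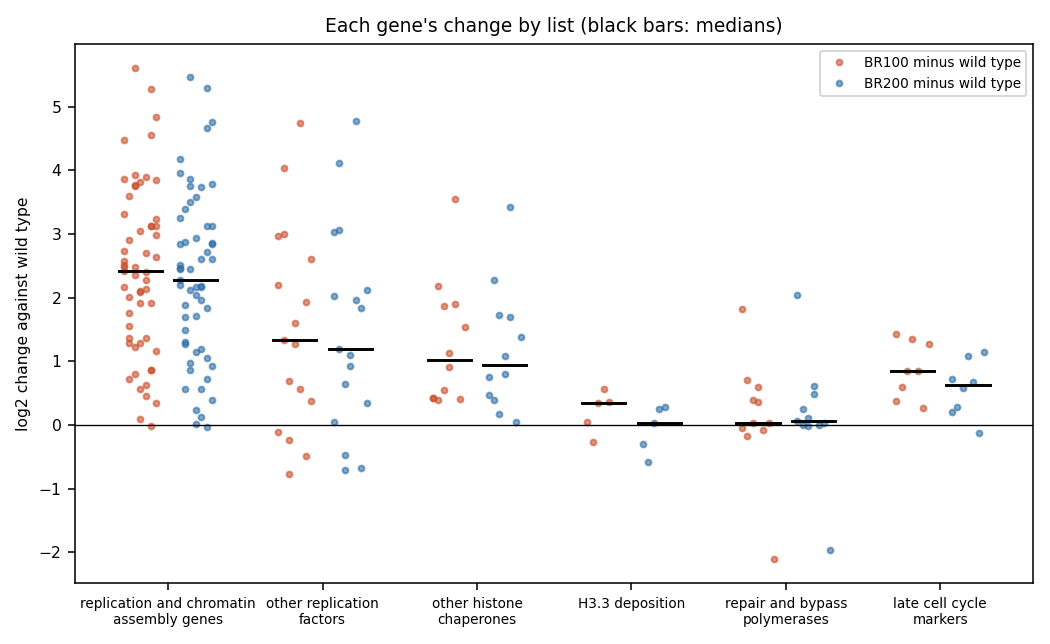
Log2 change against wild type of every tested gene in 6 lists, BR100 in orange and BR200 in blue, with black bars for medians. The replication and chromatin assembly genes have medians of 2.42 and 2.28, the other replication factors 1.33 and 1.20, the other histone chaperones 1.02 and 0.94, and the late cell cycle markers 0.85 and 0.63.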

How the data were processed

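Expression was measured on 6 arrays of HT-29, with 2 arrays each of wild type, BR100 and BR200, 1 per labelling kit. The authors deposited log2 values, 1 for each probe set, from GCRMA per the submitters' processing notes; its version is not given in the sources used here. On each array 34.8% to 35.3% of probe sets sat at the floor of 2.23, and precision is limited by signal over this floor and by the few arrays.

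Probe sets were named from the array's annotation table. It gave 1 gene for 41097, several for 1801 and none for 11777; symbols were checked against RefSeq GRCh38.p14, which 41043 matched. Where several probe sets named a gene alone, the brightest on average stood for it, and 9405 genes were set aside by the filter (at least 2 of 6 arrays at 4 or more). The fit was limma 3.58.1 (lmFit, eBayes) in R 4.3.3 on all 6 arrays, with terms for variant and kit, two-sided, Benjamini-Hochberg adjusted over 10370 genes and called at 0.05. It had 2 residual degrees of freedom and 2.33 added by eBayes; the median SE was 0.0876. The kit number pairs the arrays across variants by design, since each kit labelled 1 array of every variant, so kit is a block in the fit. The fit was tested on simulated data.

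All 57 genes could be named; array values are given for the largest and smallest change in each complex and for genes whose probe sets disagree, and up to 4 called genes of each other list. Promoter windows were not used for RPA2, RPA3, POLD3, DSCC1, RECQL4, GINS4, ATAD5, MCM5 and MCM4. The genes, lists and tests were chosen with earlier results of these data known. Alternatives covered the block, probe set choice, filter, scaling, moderation, call rule and each array left out; those for the other lists were added after seeing the data.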

Additional observations from a re-analysis of the deposited data

Results flagged for a closer look

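Probe sets that name more than 1 gene were left out of the tests. Among them, 2 that match both PRIM2 and its relative PRIM2BP carried signal that followed the resistant variants. On 1554885_a_at the arrays read 2.58 and 3.19 in wild type, 5.35 and 6.27 in BR100 and 5.35 and 6.08 in BR200, so the 4 resistant arrays averaged 2.88 above wild type. On 215708_s_at they read 4.02 and 4.42, then 6.34 and 7.89, then 6.36 and 7.86, an average of 2.89 above wild type. PRIM2 rose by 2.48 and 2.46 on the probe set that names it alone. Which of the genes the shared probe sets read was not tested.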

How the results depend on the processing

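The counts against wild type were 53 in BR100 and 52 in BR200, and 0 fell in any setting tried. Leaving out probe sets with an _s, _x or _a suffix left 38 genes to test, of which 35 and 34 rose. Leaving out each array in turn gave 51 to 55 in BR100 and 49 to 53 in BR200, where a variant left with 1 array is assumed to vary like the others. Without the kit block, which pairs the arrays of the variants, 49 and 48 rose; CDC6, POLD2 and ATAD5 were lost in both, ORC5 in BR100 and DBF4 in BR200. Averaging the probe sets of a gene turned RFC5 from -0.01 to 2.11 in BR100 and from -0.03 to 1.77 in BR200, because its other probe sets rose. For BR200 against BR100, 0 genes were lower, against 1 with averaged probe sets (RFC5), 1 with the filter at 6 (DBF4) and 5 with trend and robust moderation; 0 were higher in any setting. Leaving out each array gave 0 in both directions, which shows no stability: 0 of all 10370 genes passed without a BR100 or BR200 array, and 61 without a wild type array. Other scalings moved the median of all genes by no more than from 0.04 to 0.10.

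With 2 arrays a variant, the median half-width of 0.24 for BR200 against BR100 is at 95% confidence without adjustment over all genes. Larger differences also went uncalled after adjustment: DBF4 and ORC5 at -0.32, POLD2 at -0.36 and RECQL4 at -0.39. Levels near the floor of 2.23 limit the fold changes of ORC1, MCM10, GINS4 and CLSPN. The same limit holds for POLE2, whose wild type arrays lay at the filter value, and for WDHD1 of the other lists.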
